A study of Mus musculus with 225 samples.

Results

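Zeugopod cells, from the part of the limb that forms the forearm, were separated by whether they held *Hoxa11* transcripts. The groups were chosen by the normalized *Hoxa11* value of each zeugopod cell, and 32 cells lay at or above a value of 5 (*Hoxa11*-positive) while 91 lay below it (*Hoxa11*-negative). They made up the zeugopod cells among the 199 of the normalized table, the remaining 76 being autopod cells from the part that forms the hand. All cells came from E12.5 mouse forelimbs heterozygous for *Hoxd11::GFP*, on a mixed C57Bl6CBAF1 background, and no other genotype, stage or treatment was present. In this allele a tau-GFP cassette sits in the *Hoxd11* coding sequence, so that 1 of the *Hoxd11* copies is disrupted in every cell of both groups. The brightest GFP cells of pooled embryos were sorted and captured on a microfluidic chip (Fluidigm C1), which processes each cell in a separate chamber. No embryo is given for a cell in the labels, so the zeugopod counted as 1 pooled sample, both groups of cells came from it, and no p-value or standard error was computed over cells. Zeugopod cells were sequenced in 2 runs, with 19 positive and 39 negative cells in NXT0142 and 13 positive and 52 negative cells in NXT0143. The runs shared no cell, and comparisons are given over all cells and within each run. Since the runs gave different proportions of the groups, a value over all cells also holds the difference between the runs and can lie outside the values of both.

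*Hox* genes encode homeodomain transcription factors that lie in clusters and are activated in order along the developing limb. The group 11 genes *Hoxa11* and *Hoxd11* act together in the forearm, and the radius and ulna fail to form properly when both are lost. In the autopod, where *Hoxa13* and *Hoxd13* are active, *Hoxa11* is normally silent, and the antisense RNA *Hoxa11os* is transcribed from the opposite strand of the same locus.

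On GRCm38 (GENCODE annotation M21) *Hoxa11* (ENSMUSG00000038210) lies on the minus strand at chr6:52242106-52245810, between *Hoxa10* (chr6:52231197-52240854) and *Hoxa13* (chr6:52257694-52260880). *Hoxa11os* (ENSMUSG00000086427) lies on the plus strand at chr6:52244393-52249799. All 800 bases of *Hoxa11* exon 1 also belonged to exons of *Hoxa11os*, whereas none of the 1487 bases of exon 2 did. The libraries did not record the strand, so that reads on exon 1 cannot be assigned to either transcript. The gene length implied by the normalized table was 1489 bases for *Hoxa11* and 1609 for *Hoxa11os*, close to or equal to their unshared exon bases (1487 and 1609) and well below all of their exon bases (2287 and 3073). The length that the grouping rests on is therefore that of exon 2, although how reads on shared bases were counted is not given in the sources used here. The following sequences show both features of the locus. The first is the stretch of 250 bases before the *Hoxa11* start site (chr6:52245811-52246060, minus strand, RefSeq, GRCm38.p6), with the 98 bases that lie in *Hoxa11os* exons in capitals. The second is coding sequence of *Hoxa11* across its splice junction (GENCODE M21), the last 60 bases of exon 1 (chr6:52245011-52245070) in lower case and the 230 coding bases of exon 2 (chr6:52243363-52243592) in capitals. These capitals mark coding bases within the unshared length.
*Hoxa11* upstream: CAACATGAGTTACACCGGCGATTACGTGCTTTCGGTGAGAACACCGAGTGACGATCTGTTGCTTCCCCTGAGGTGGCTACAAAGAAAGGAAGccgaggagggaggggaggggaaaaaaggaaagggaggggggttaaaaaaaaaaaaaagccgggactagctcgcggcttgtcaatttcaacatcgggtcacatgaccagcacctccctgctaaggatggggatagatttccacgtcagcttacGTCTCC
*Hoxa11* junction: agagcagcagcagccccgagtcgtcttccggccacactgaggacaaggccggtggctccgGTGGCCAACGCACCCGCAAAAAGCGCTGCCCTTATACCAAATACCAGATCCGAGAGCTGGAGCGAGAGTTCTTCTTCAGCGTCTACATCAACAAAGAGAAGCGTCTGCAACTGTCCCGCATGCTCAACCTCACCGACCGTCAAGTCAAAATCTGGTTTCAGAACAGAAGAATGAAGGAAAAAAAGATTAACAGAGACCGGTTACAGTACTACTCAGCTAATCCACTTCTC

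The *Hoxa11* values are those that made the groups and are given as a description. In the positive cells the normalized value, in reads per kb of gene length, was 5.37 at the lowest, 59.8 at the median and 2365 at the highest. The 4 highest cells, each above 1000, were all in NXT0142 and held 67.9% of the summed value, so the positive cells differed from each other by a wide margin. In NXT0142 the median of the positive cells was 124.2, and in NXT0143 it was 32.2. In negative cells the value lay between 0.672, which stands for less than 1 scaled read, and 4.03. Of the 91 negative cells, 79 had 0 *Hoxa11* reads and 12 had 1 read or more, with at most 15 reads. The cells just inside the threshold had values of 5.37, 6.04 and 6.72, resting on 2, 10 and 5 reads. Those just outside had 4.03 (6 reads in each of 2 cells) and 2.69 (2 and 15 reads). A few cells near the threshold could thus be placed in either group.

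**Figure D1:**
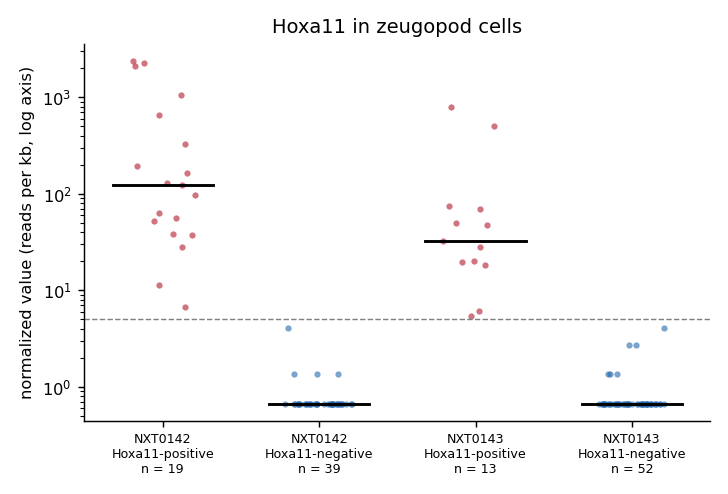
Normalized *Hoxa11* value of each zeugopod cell (reads per kb, log axis) by run and group, with points for cells, black bars for medians and a dashed line at the value of 5 that divides the groups. The highest cells lie in NXT0142, up to 2365, and the positive cells of NXT0143 have a median of 32.2.

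The share of zeugopod cells called positive was 26% (32 positive and 91 negative cells, 95% Clopper-Pearson interval 18.5 to 34.7%). It was 32.8% in NXT0142 (19 of 58, 21 to 46.3%) and 20% in NXT0143 (13 of 65, 11.1 to 31.8%), so the intervals of the runs overlapped. These intervals cover counting error only. With 1 read as the criterion the share was 35.8%. The same value of 5 was reached in 5.26% of autopod cells (4 of 76, 1.45 to 12.9%), at a median of 2830024 reads on genes in the autopod and 3233736 in the zeugopod. After each cell was thinned to 500000 reads, with shallower cells left out, a *Hoxa11* read was left in 30 of 30 positive and 2 of 89 negative cells, a description of the gene that made the groups.

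Depth did not differ in the same direction in the 2 runs. Positive and negative cells had a median of 4192062 and 4039271 reads on genes in NXT0142, and 2348837 and 2786786 in NXT0143. The median number of genes detected was 4285 and 4270 in NXT0142, against 3396 and 3830 in NXT0143. Positive cells of NXT0143 were thus shallower and held fewer genes than the negative cells of that run. Their median size factor, by which the counts had been divided, was 1.38 compared with 1.05 in negative cells, whereas it was 1.09 and 1.18 in NXT0142. At 500000 reads per cell the median number of genes was 3371 and 3160 in NXT0142 and 2748 and 2963 in NXT0143. The part of these differences in the results below was not tested.

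The label of the cells was checked against tissue markers. At least 5 reads of *Shox2* or *Meox2*, transcription factor genes of the more proximal limb, were found in 26 of 32 positive and 70 of 91 negative cells. The autopod genes *Hoxa13* and *Hoxd13* reached 5 reads in none of the positive cells (0 of 32, which allows a share of up to 9.38% at a limit of 3 cells and of 10.9% by the exact interval) and in 4 of the 91 negative cells. The limb mesenchyme markers *Prrx1*, *Twist1* and *Col1a1* gave 5 reads of at least 2 genes in 26 of 32 positive and 62 of 91 negative cells. No cell of either group had 5 reads of the required number of muscle, epithelial, endothelial, blood, macrophage or Schwann cell markers. *Myod1*, *Myog*, *Krt5* and *Cdh5* were at 0 reads throughout, and 1 of the 4 blood markers was present in the count table. Single markers of these types reached 5 reads in some cells of both groups. *Csf1r*, of macrophages, did so in 7 of 32 positive and 10 of 91 negative cells, on 88 and 198 reads in all. *Pax7*, of muscle progenitors, did so in 2 and 13 cells (36 and 197 reads), and *Epcam*, of epithelium, in 3 and 6 cells (4305 and 13516 reads). Each of the others did so in at most 5 cells. Reads of *Xist*, transcribed from the inactive X, and of a Y-linked gene occurred together (at least 5 of each) in 4 of 32 positive and 20 of 91 negative cells. Such cells may hold material of more than 1 cell, and the gene counts below are also given without them.

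The 3 genes to be set beside *Hoxa11* were *Hoxa10*, its neighbour in the HoxA cluster, and *Hoxd10* and *Hoxd11*. A gene was called on at a normalized value of 5. *Hoxa10*, which patterns the upper limb segment and is also active in the forearm, was on in 30 of 32 positive and 66 of 91 negative cells. *Hoxd11*, the paralog of *Hoxa11* whose reporter was used in a sort that can itself set this share, was on in 29 of 32 and 63 of 91. *Hoxd10* was on in 21 of 32 and 51 of 91. For each of the 3 genes the share was higher in the positive cells over all cells, with the smallest gap for *Hoxd10*, and these shares over all cells also hold the difference between the runs.

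Within runs the picture was less uniform. In NXT0142 *Hoxa10* was on in 18 of 19 positive and 36 of 39 negative cells, and *Hoxd11* in 17 of 19 and 33 of 39, and both genes were on in 16 of 19 positive and 32 of 39 negative cells. In NXT0143 *Hoxa10* was on in 12 of 13 positive cells (92.3%, 64 to 99.8%) and 30 of 52 negative cells (57.7%, 43.2 to 71.3%). *Hoxd11* gave the same counts in that run, 12 of 13 and 30 of 52. *Hoxd10* was on in 15 of 19 and 28 of 39 cells in NXT0142 and in 6 of 13 and 23 of 52 in NXT0143, that is, in similar shares of both groups in each run. The higher shares of *Hoxa10* and *Hoxd11* in positive cells thus came mainly from NXT0143, where the positive cells were also the shallower ones. When cells were thinned to 500000 reads, a *Hoxd11* read was found in 12 of 12 positive and 36 of 51 negative cells of NXT0143, and in 17 of 18 and 34 of 38 of NXT0142.

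The normalized values of these genes overlapped between the groups. *Hoxd11* had a lowest, median and highest value of 0.266, 115.03 and 1020 in positive cells and of 0.266, 62.2 and 626 in negative cells. The difference of mean log2(value + 1), positive minus negative, was 1.69 for *Hoxd11* over all cells, 0.58 in NXT0142 and 2.38 in NXT0143. *Hoxa10* had values of 0.611, 287 and 1737 in positive and of 0.305, 79.7 and 1713 in negative cells. Its difference was 1.50 overall but 0.079 in NXT0142 and 2.21 in NXT0143. *Hoxd10* had values of 0.583, 95.4 and 4158 in positive and of 0.583, 16.3 and 2788 in negative cells. Its difference was 1.13 over all cells, above the values of both runs (1.02 in NXT0142 and 0.29 in NXT0143), and was 0.66 as the mean of the runs with equal weight. The larger *Hoxd10* difference, in NXT0142, went with the level in the cells that had it on. In these cells of NXT0142 its median was 1379 in positive and 393 in negative cells, whereas in NXT0143 it was 229 and 237.

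Combinations were then counted. Every positive cell had *Hoxd10* or *Hoxd11* on (0 of 32 with neither, which allows a share of up to 9.38% at a limit of 3 cells and of 10.9% by the exact interval), whereas 15 of 91 negative cells (16.5%, 9.53 to 25.7%) had neither. Of these 15 cells, 13 were in NXT0143. Both *Hoxd* genes were on in 18 positive and 38 negative cells, *Hoxd11* without *Hoxd10* in 11 and 25, and *Hoxd10* without *Hoxd11* in 3 and 13. All of *Hoxa10*, *Hoxd10* and *Hoxd11* were on in 17 of 32 positive and 32 of 91 negative cells (12 of 19 and 24 of 39 in NXT0142, 5 of 13 and 8 of 52 in NXT0143). Seen from the other side, 29 of the 92 cells with *Hoxd11* on were *Hoxa11*-positive (31.5%, 22.2 to 42%), compared with 3 of the 31 cells without it (9.68%, 2.04 to 25.8%). In NXT0142 these shares were 17 of 50 and 2 of 8, and in NXT0143 12 of 42 and 1 of 23. Thus most cells with *Hoxd11* on had no *Hoxa11* above the threshold. Even among the 75 cells with both *Hoxa10* and *Hoxd11* on, 27 were *Hoxa11*-positive (36%, 25.2 to 47.9%), with 16 of 48 in NXT0142 and 11 of 27 in NXT0143.

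*Hoxa11os* was on in 24 of 32 positive cells (75.0%, 56.6 to 88.5%) and 44 of 91 negative cells (48.4%, 37.7 to 59.1%). Its value was 0.622 at the lowest, 273 at the median and 2912 at the highest in positive cells, against 0.622, 1.24 and 3316 in negative cells, so the ranges overlapped in full. It was on in 17 of 19 and 29 of 39 cells in NXT0142 and in 7 of 13 and 15 of 52 in NXT0143. The difference was 2.35 over all cells, above the values of both runs (1.75 in NXT0142 and 1.79 in NXT0143), and was 1.77 as their mean with equal weight. It was the only limb *Hox* gene tested that exceeded 1 in both runs. The antisense RNA was thus on together with *Hoxa11* in most positive cells. Of the 44 negative cells that had it on, 37 had no *Hoxa11* read and 7 had 1 or more. In the 4 cells with the highest *Hoxa11*, *Hoxa11os* was at 1195, 0.622, 907 and 0.622, the value of 0.622 standing for less than 1 scaled read. The cells at 0.622 held 1 and 0 *Hoxa11os* reads, beside 4460 and 4105 of *Hoxa11*. Among cells with *Hoxa10* and *Hoxd11* both on, *Hoxa11os* was on in 14 of 16 positive and 24 of 32 negative cells of NXT0142 and in 6 of 11 and 8 of 16 of NXT0143, shares that lay closer together than those of all cells of the same run. In the autopod *Hoxa11os* was on in 45 of 76 cells.

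The remaining *Hox* genes of the limb showed smaller differences or opposite ones in the runs. *Hoxa9* differed by 0.53 over all cells, −0.31 in NXT0142 and 1.15 in NXT0143. *Hoxd9* differed by 0.45, −0.50 and 1.11, and *Hoxd8* by 0.66, −0.30 and 0.82. All 7 limb *Hox* genes tested, *Hoxa11* aside, were above 0 over all cells, and 4 of the 7 (*Hoxa10*, *Hoxa11os*, *Hoxd10* and *Hoxd11*) were above 0 in each run. The share of all genes tested that lay above 0 in each run is not given here. In NXT0142 *Hoxa10*, at 0.079, lay below that run's median over all genes tested (0.20). *Hoxa13*, *Hoxd12* and *Hoxd13* did not pass the filter on low counts and were on in at most 1 cell of either group.

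**Figure D2:**
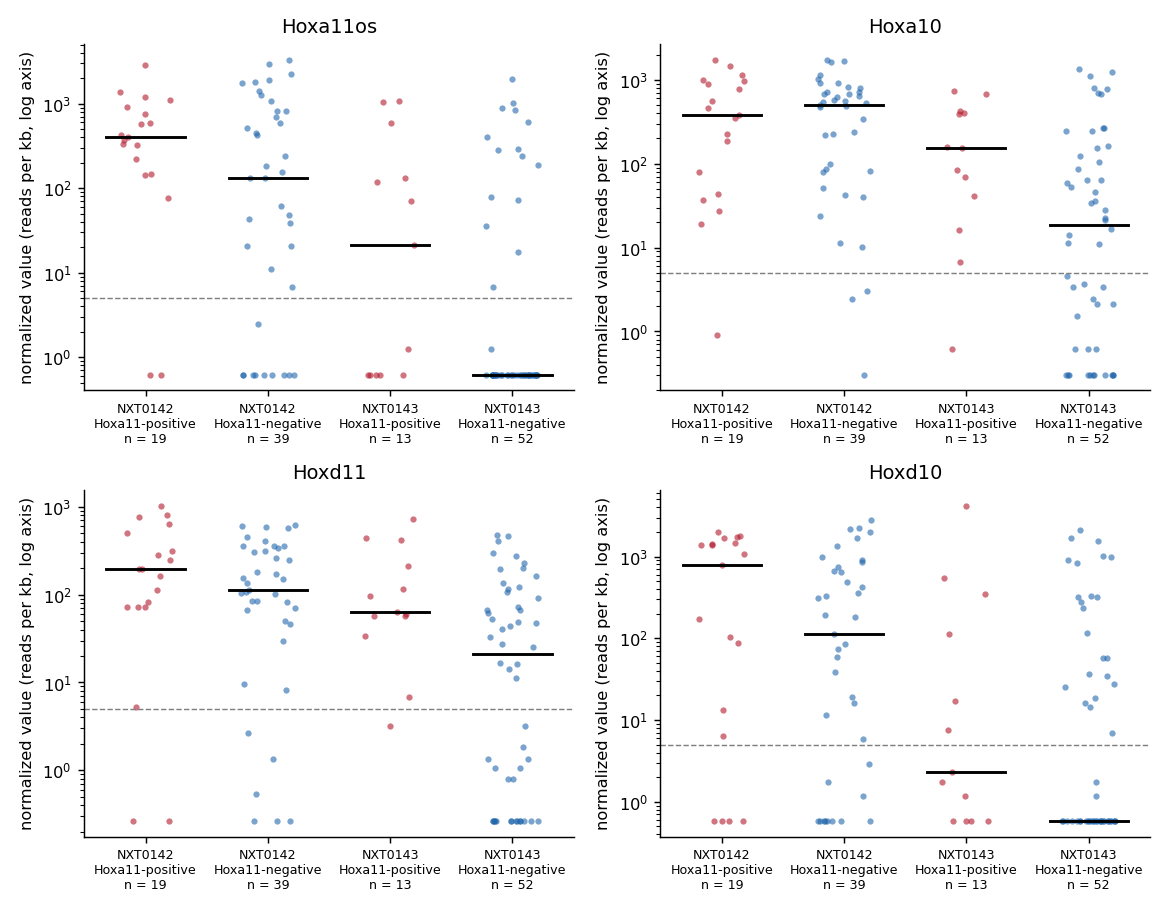
Normalized values of *Hoxa11os*, *Hoxa10*, *Hoxd11* and *Hoxd10* in each zeugopod cell (reads per kb, log axis) by run and group, with points for cells, black bars for medians and a dashed line at the value of 5. In NXT0142 most cells of both groups lie above the line for *Hoxa10* and *Hoxd11*, whereas in NXT0143 30 of 52 negative cells do.

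The groups were next compared across genes. A difference was computed for the 5190 genes, *Hoxa11* aside, that reached 5 reads in 25% or more of the cells of 1 group or both. A gene that passed through 1 group alone reached 5 reads in a larger share of that group, which favours a difference in that direction. A gene was past the fold when its difference was at least 1 (or −1 or less) over all cells and within each run. Of the genes tested, 63 were higher in positive cells (1.21%) and 91 lower (1.75%). *Hoxa11os*, the S phase gene *Mcm2* and the fibulin gene *Efemp2* were among the higher genes, and *Fis1*, *Btg1* and *Col9a2* among the lower ones. Over all cells alone the counts were 286 higher (5.51%) and 236 lower (4.55%). Within NXT0142 834 were higher (16.1%) and 365 lower (7.03%), and within NXT0143 365 were higher (7.03%) and 979 lower (18.9%). On CPM, reads per 1000000 reads on genes, 135 were higher and 95 lower, so that the balance of the directions depended on the scale. Without the cells that held both *Xist* and a Y-linked gene, 1.58% of genes were higher and 2.11% lower, and 51 of the 63 and 61 of the 91 genes were still past the fold.

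The runs did not share a common pattern across genes. The median difference over all genes tested was 0.057 over all cells, 0.20 in NXT0142 and −0.28 in NXT0143. In both runs 156 genes differed by at least 1 in the same direction (63 higher and 93 lower), and 218 differed by at least 1 in opposite directions, 190 of them higher in NXT0142 and lower in NXT0143. With each run centred on its own median these numbers were 153 and 162. The differences in the 2 runs had a Pearson correlation of 0.0100 and a Spearman correlation of 0.022 across the 5190 genes, which are not independent of each other and share the cells of each run. A gene past the fold in both runs was thus no more frequent than one past it in opposite directions.

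**Figure D3:**
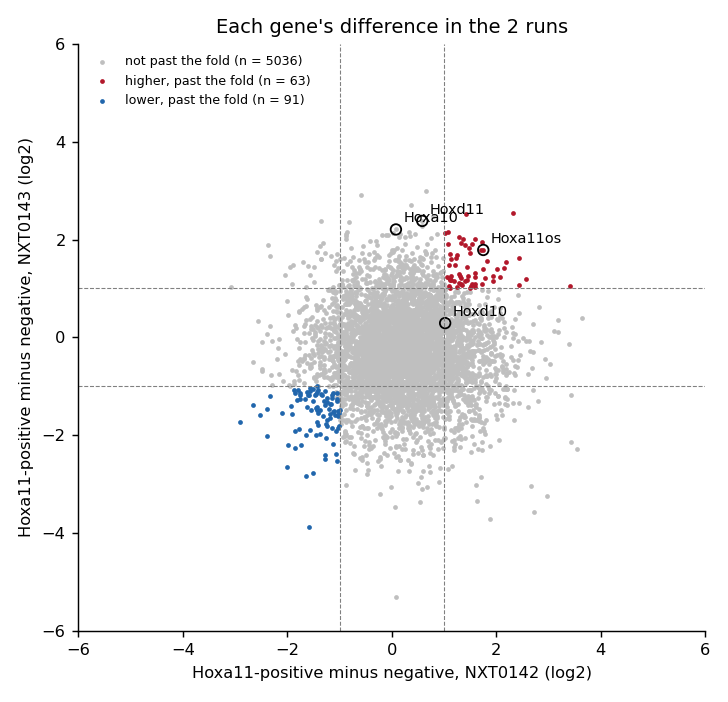
Difference of mean log2(value + 1), *Hoxa11*-positive minus *Hoxa11*-negative, of each of the 5190 genes tested in NXT0142 (x axis) and NXT0143 (y axis), with dashed lines at 1 and −1. The 63 higher and 91 lower genes are coloured, *Hoxa11os* lies past 1 on both axes, and *Hoxa10*, *Hoxd11* and *Hoxd10* each lie past 1 on only one.

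Among the genes higher in positive cells, the largest difference over all cells was that of *Tmem55a*, which encodes a phosphoinositide phosphatase (chr4:14864076-14915176). Its lowest, median and highest values were 0.426, 754 and 4378 in positive cells and 0.426, 421 and 8148 in negative cells. It had 5 reads in 30 of 32 and 61 of 91 cells, and differed by 2.40 over all cells, 3.42 in NXT0142 and 1.04 in NXT0143. *Jam3*, an adhesion molecule of cell junctions (chr9:27097384-27155421), had values of 0.392, 4.90 and 2968 against 0.392, 0.392 and 1858. It was held by 18 of 32 and 22 of 91 cells, and differed by 2.38, with 2.32 and 2.54 in the runs. *Jam3* was thus nearly even between the runs, while *Tmem55a* was far from it. With equal weight for the runs *Jam3* had the larger difference of this pair, 2.43 compared with 2.23.

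The others were varied in function. They comprised the splicing factor *Puf60* (difference 2.02), the G protein subunit *Gna12* (2.01), *Rer1*, which returns proteins to the endoplasmic reticulum (1.96), *Tmem126b*, needed to assemble respiratory complex I (1.93), the replication helicase subunit *Mcm2* (1.93) and *Zswim4* (1.92). The endocytic adaptor *Ap2a2* differed by 1.90, *Efemp2*, which encodes a matrix protein of elastic fibres, by 1.85 and the nucleolar helicase *Ddx56* by 1.85. *Efemp2* was held by 21 of 32 positive and 37 of 91 negative cells and differed by 1.71 and 1.79 in the runs. *Mcm2* was held by 14 of 32 and 21 of 91 cells. Both groups held cells with and without each of these genes. *Jam3*, *Gna12*, *Tmem126b*, *Mcm2*, *Zswim4* and *Ddx56* passed the filter through the positive cells alone, so the filter favoured their direction.

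The largest difference over all cells among the lower genes was that of *Fis1*, which acts in mitochondrial fission (chr5:136953275-136966234). Its values were 0.580, 23.8 and 5966 in positive and 0.580, 294 and 5214 in negative cells, and 17 of 32 and 77 of 91 cells had 5 reads. It differed by −2.59 over all cells, −1.59 in NXT0142 and −3.87 in NXT0143. *Btg1*, an antiproliferative gene (chr10:96617006-96622809), had 5 reads in 30 of 32 and 86 of 91 cells, so nearly every cell held it. Its median was 13.2 in positive and 193 in negative cells, and it differed by −2.12, with −2.40 and −2.02 in the runs. *Btg1* was therefore lower in level and not in the share of cells that held it. *Dmap1*, which encodes a chromatin protein (chr4:117674681-117682273), was instead held by 3 of 32 and 39 of 91 cells and differed by −2.24.

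The calcium-binding *Anxa6* differed by −2.19, the proton pump subunit *Atp6v0e* by −2.19 and the securin-binding *Pttg1ip* by −2.12. *Lrrc42* and the pterin reductase *Qdpr* both differed by −2.03, the zinc finger gene *Zfp638* and *Wdr18* by −1.97, *Tmem234* by −1.89 and the proteasome ATPase *Psmc3* by −1.86. Each had the same direction in both runs by the rule. *Dmap1*, *Anxa6*, *Pttg1ip*, *Lrrc42*, *Qdpr* and *Wdr18* passed the filter through the negative cells alone, so the filter favoured their direction. When CPM, pseudocounts of 0.1 and 10, thinning, centring by run and *Hoxa11* thresholds of 1 read and of 20 were each tried, 2 higher genes (*Efemp2* and *Jam3*) and 8 lower genes were past the fold under all 7 of these settings. The 8 were *Btg1*, *Lrrc42*, *Psmc3*, *Qdpr* and *Zfp638* with *Ccnl1*, *Herpud1* and *Ppic*, and the last 3 were singled out after their values were seen. *Hoxa11os* was not among these genes. The 7 settings were a selection of the alternatives run, and all of them reuse the same cells. A pseudocount of 0.1 removed none of the 63 higher and 91 lower genes. *Jam3*, *Lrrc42* and *Qdpr* were among the genes whose direction the filter favoured.

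**Figure D4:**
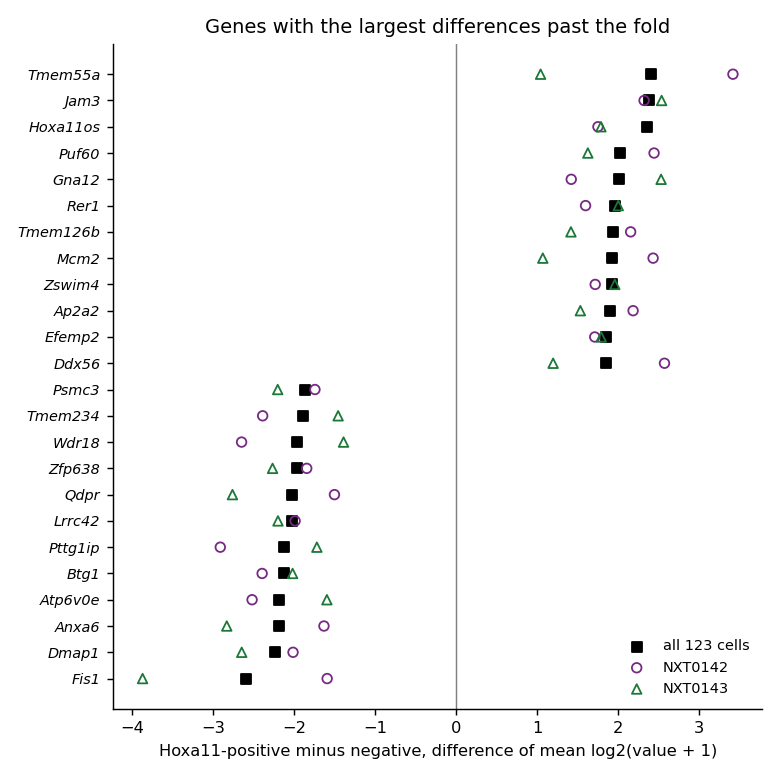
Difference of mean log2(value + 1), *Hoxa11*-positive minus *Hoxa11*-negative, for the 12 genes with the largest difference past the fold in each direction, over all cells (squares) and in each run (circles and triangles). The runs lie close together for *Jam3*, *Hoxa11os* and *Btg1* and far apart for *Tmem55a* (3.42 and 1.04) and *Fis1* (−1.59 and −3.87).

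Gene lists for the limb were read beside the medians of all genes tested (0.057 over all cells, 0.20 and −0.28 in the runs) and of the shares of those genes past the fold (1.21% higher and 1.75% lower). With at most 29 genes tested in a list, 1 gene past the fold cannot be read as more than these shares. Of 19 genes of cartilage formation 8 were tested, none was past the fold in the higher direction and 1 was in the lower, *Col9a2*, a collagen of cartilage matrix. The median of the 8 was −0.77 over all cells, −0.65 in NXT0142 and −1.41 in NXT0143, and 6 of the 8 were below 0 in each run. The share of all genes tested that lay below 0 in each run is not given here. *Col9a2* differed by −1.73, with −1.08 and −2.38 in the runs, and had 5 reads in 10 of 32 and 45 of 91 cells. *Col9a1*, which encodes a partner chain of the same collagen, differed by −1.04, with −0.77 and −1.59. *Sox9*, the transcription factor that starts cartilage differentiation, differed by −0.70, with −0.036 and −1.62, and its target *Col2a1* by −0.088, with 0.80 and −1.23, so these did not pass.

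Cells with 5 reads of at least 3 of the 5 defining cartilage markers numbered 7 of 32 positive (21.9%, 9.28 to 40%) and 31 of 91 negative (34.1%, 24.5 to 44.7%). They were 5 of 19 and 14 of 39 in NXT0142 and 2 of 13 (1.92 to 45.4%) and 17 of 52 (20.3 to 47.1%) in NXT0143. The summed CPM of these 5 markers ranged from 2.01 to 8006 in positive cells (median 512) and from 0 to 11930 in negative cells (median 789). *Matn1*, a marker of more mature cartilage, was at 0 reads in all positive cells and had 5 reads in 4 negative cells. Each group thus held such cells, and the intervals of their shares overlapped widely.

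The transcription factors of the zeugopod did not separate the groups. Of 11 listed, 6 were tested and 0 were past the fold. *Shox2*, needed for the growth of proximal limb bones, differed by −0.35 (0.30 and −0.87 in the runs) and *Meox2* by −0.21 (0.63 and −0.99). *Tbx15* differed by −1.33 with −0.82 and −2.04, and *Tbx5*, required for the forelimb to form, by 0.91 with −0.41 and 1.96. Of the 15 general limb mesenchyme factors 5 were tested and none passed. *Prrx1* was on the higher side over all cells at 1.31, with 1.80 in NXT0142 and 0.15 in NXT0143. *Twist1* was at 0.92, with 1.44 and 0.0034, and *Lmx1b* at 0.60, with 0.76 and 0.38. The other 2 were on the lower side over all cells. *Tbx18* was at −0.56, with 0.19 and −1.92, and *Hand2* at −0.40, with −0.81 and −0.041. None of the 24 connective tissue genes passed, with a median of 0.18 over all cells, 0.18 and −0.065.

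Tendon markers gave 5 reads of at least 2 of *Scx*, *Tnmd* and *Tnc* in 8 of 32 positive (25%, 11.5 to 43.4%) and 9 of 91 negative cells (9.89%, 4.62 to 17.9%). They were 6 of 19 and 5 of 39 in NXT0142 and 2 of 13 and 4 of 52 in NXT0143. *Scx*, the transcription factor of tendon progenitors, differed by 0.83, with 1.28 and 0.18 in the runs, and *Tnc* by −0.22, with 1.01 and −1.66. No tendon gene was past the fold. The summed CPM of the 3 markers had a median of 24 in positive and 0.447 in negative cells of NXT0142, and of 0 and 18.8 in NXT0143. Over all 9 genes of the tendon list the medians were 777 and 1288 over all cells, 817 and 568 in NXT0142 and 738 and 2094 in NXT0143. The intervals of the shares overlapped, and the summed levels ran in opposite directions in the runs.

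Cell cycle and secretory genes differed between the runs. Of 24 S phase genes 19 were tested and 1, *Mcm2*, was past the fold, with a median of 0.29 over all cells, 1.15 in NXT0142 and −0.73 in NXT0143. *Mcm4*, a subunit of the same helicase, differed by 1.15 in NXT0142 and −2.64 in NXT0143. None of the 12 G2/M genes tested passed, and at least 3 of *Mki67*, *Top2a*, *Ccnb1* and *Cdk1* reached 5 reads in 7 of 32 positive and 16 of 91 negative cells. Of 15 chaperones and collagen folding genes tested, 1 was lower, *Manf*, a secreted protein of the stress response in the endoplasmic reticulum, at −1.80 with −1.28 and −2.40. The median of that list was −0.69, with 0.17 in NXT0142 and −1.39 in NXT0143. Of the 14 embryonic growth genes tested, 1 was lower, the RNA-binding *Igf2bp3*, at −1.47 with −1.76 and −1.14. None of the genes tested in the signalling (29), Eph, ephrin and adhesion (11), autopod (4), early response and heat shock (13), ribosomal protein (20), common gene (10), perichondrium (1), proximal factor (1) and sex-linked (5) lists was past the fold. The lists of anterior *HoxA* genes, muscle, epithelium, endothelium, blood, macrophages, Schwann cells and mitochondrial transcripts had 0 genes tested.

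**Figure D5:**
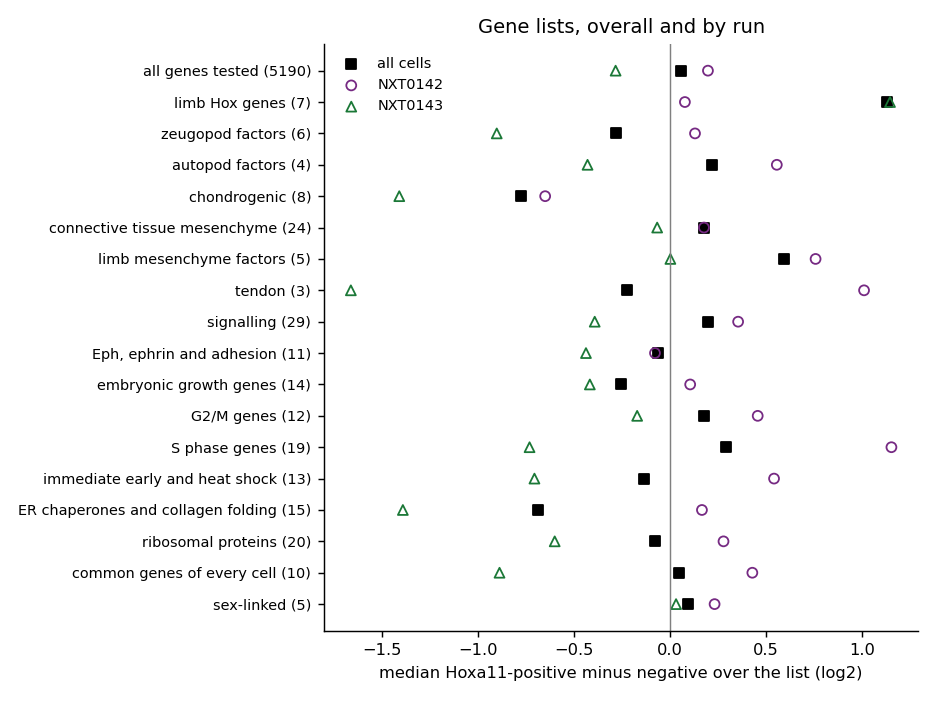
Median difference, *Hoxa11*-positive minus *Hoxa11*-negative (log2), over the tested genes of each list with 3 or more, with their number in brackets, over all cells (squares), in NXT0142 (circles) and in NXT0143 (triangles). The cartilage list and the Eph, ephrin and adhesion list lie below 0 in both runs. The limb *Hox*, limb mesenchyme factor and sex-linked lists lie above 0 in both, and most other lists lie on opposite sides. In NXT0142 the limb *Hox* median (0.079) lies below that of all genes tested (0.20).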

How the data were processed

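Forelimb cells at E12.5 were captured on a Fluidigm C1 chip and sequenced from polyA RNA (SMARTer and Nextera XT). The authors mapped reads with bowtie2 to GRCm38 (mm10) and deposited the counts, the number of reads on each of 23165 genes in 225 cells. The deposited normalized signal, for 10948 genes in 199 cells, was made by the authors with size factors from spike-ins and gene length. After multiplication by the implied gene length 100% of the values were whole within 1e-06. The formula tried was a read count divided by its cell's factor, rounded down, plus 1. With factors estimated from the table it recovered 92.2% of values exactly. That share includes values at 0 reads, which the formula sets to 1 whatever the factor, and the share among the other values is not given. By this formula less than 1 scaled read gives 1 divided by the length in kb. The spike-in rows were not used.

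Reads on genes ranged from 186271 to 6801278 in the 123 zeugopod cells. Of 129 zeugopod cells with counts, 6 were left out of the normalized table by the authors. Gene lengths were compared with exon bases of GENCODE M21. Of 2286 genes with over 5% of exon bases shared with another gene, 63.0% had an implied length within 2% of their unshared exon bases and 4.90% within 2% of all exon bases.

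Cells were grouped by the *Hoxa11* value. No test over cells was made, because the zeugopod is 1 pooled sample. Differences of mean log2(value + 1) were computed in Python 3.11 with numpy and pandas, and shares were given exact (Clopper-Pearson) 95% intervals, with a count of 0 also given the limit of 3 counts. The named genes were the limb *Hox* genes, the 12 largest differences past the fold in each direction, up to 4 members past the fold of each of 27 lists, and the cell type markers. The groups, genes and lists were chosen with earlier results of these data known. For thinning, 500000 reads on genes were drawn without replacement from each cell (seed 42), leaving out 4 shallower cells. No doublet caller was run. The calculation was also run on simulated counts with known fold changes, drawn around the pooled mean of each gene without a difference between runs. That setting differs from the data, so it is not used as support for the genes named. Alternatives comprised CPM, values without length, pseudocounts, filters, *Hoxa11* thresholds, depth, centring and single runs.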

Additional observations from a re-analysis of the deposited data

Results flagged for a closer look

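*Hoxa11* lies outside the zeugopod comparison in the autopod cells, where a value of 5 was reached in 5.26% of cells (4 of 76, exact interval 1.45 to 12.9%). The limit of 3 cells (3.95%) applies to a count of 0 and does not bear on the 4 cells seen here. All 4 cells were in run NXT0072 (4 of 59), and none of the 17 autopod cells of NXT0143 reached it (0 of 17, which allows a share of up to 17.6% at 3 cells and of 19.5% by the exact interval). Their *Hoxa11* values were 5.37, 16.1, 43.7 and 98.1, on 14, 13, 162 and 606 reads. *Hoxd13* was on in 3 of the 4 cells, at 5019, 1295 and 1433, and its share over all autopod cells is not given here. In the same order as the *Hoxa11* values, *Hoxa13* was at 0.404, 346, 3.23 and 23.8 in the 4 cells. The cell with a *Hoxa11* value of 43.7 had *Hoxd13* at 0.402, the lowest value that gene can take, together with *Hoxd10* at 2129 and *Hoxd8* at 533. No explanation was tested.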

How the results depend on the processing

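The numbers of genes higher and lower (63 and 91) moved by over 1.5 times, 1 or both of them, under several settings. They are given here as shares of the genes tested (1.21% and 1.75%). The shares were 2.14% and 2.96% on values multiplied by gene length, 2.49% and 3.37% with a pseudocount of 0.1, 0.19% and 0.40% with a pseudocount of 10, 1.84% and 2.05% (35 and 39 genes) with the filter at 50% of cells, and 5.51% and 4.55% without asking for the fold in each run. The higher share was 2.60% on CPM and 3.20% after thinning, and the lower share was 2.80% with *Hoxa11*-positive cells taken at a value of 20, where 21 of the 63 and 56 of the 91 genes were past the fold. Without a filter 64 and 100 genes were past the fold, 0.58% and 0.91% of the 10947 then tested. The share of positive cells, 26%, was 35.8% with 1 read. The construction of the settings accounts for the smaller numbers under the stricter filter (1903 genes tested) and for the larger ones with the fold over all cells alone. The cause was not tested for the other settings or for the higher shares under the stricter filter. With a pseudocount of 10 the 10 and 21 genes past the fold were all among the 63 and 91. With a pseudocount of 0.1 all of the 63 and 91 were still past it. With *Hoxa11* at 1 read or more, 53 and 61 genes were past the fold, but only 15 and 19 of them were among the 63 and 91. The median over all genes moved from 0.057 to 0.16 after thinning, was −0.0068 without a filter and was −0.031 as the mean of both runs, an alternative chosen after seeing the data, as was leaving out cells with *Xist* and a Y-linked gene. No named gene past the fold changed sign under the other scales, pseudocounts, thinning, thresholds, left-out cells or centring. A filter does not alter a gene's difference. Single runs and their mean could not change a sign, because the rule asks for the fold in each run. Sizes moved in both directions. With *Hoxa11* at a value of 20, *Zswim4* went from 1.92 to 0.66 and *Hoxa11os* from 2.35 to 3.02. No paired analysis was possible because the groups are cells of 1 pooled sample and no test was made. A positive cell near the threshold rests on as few as 2 reads, and the absence of *Hoxa11* in a negative cell cannot be told apart from transcripts that were not captured.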
